A study of Drosophila melanogaster with 6 samples.

Results

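The prolyl 4-hydroxylase alpha genes described here are the 8 genes of *Drosophila melanogaster* whose symbols begin with PH4alpha: PH4alphaEFB, PH4alphaMP, PH4alphaNE1, PH4alphaNE2, PH4alphaNE3, PH4alphaPV, PH4alphaSG1 and PH4alphaSG2. Below, the family means these 8 genes only, and any relatives under other symbols are left out of its sums and shares. The 8 were chosen by symbol alone, and all are among the 17493 genes counted. Their messenger RNA was compared between salivary glands (SG), whose cells enlarge by endocycling, and brains plus imaginal discs (B-D), which are rich in mitotic cells, to ask how the family differs between these tissues. PolyA-selected RNA was sequenced from 3 SG and 3 B-D libraries. Both tissues were dissected from the same animals, feeding larvae of the 3rd instar and of strain y1 w67c23, raised at 25 °C and dissected 4 days after a 6 h egg lay, so every library shares that genotype and none carries a transgene or treatment. B-D is a mixture of organs, and in bulk RNA of this kind fewer cells of a type and less RNA per cell cannot be told apart.

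A prolyl 4-hydroxylase acts in the endoplasmic reticulum, the compartment in which secreted proteins fold. In animals the enzyme is a tetramer of catalytic alpha subunits and beta subunits, and the beta subunit is protein disulfide isomerase. With iron, ascorbate and 2-oxoglutarate it adds hydroxyl groups to prolines of collagen, which lets the collagen triple helix stay stable at body temperature. In the fly, collagen IV of the basement membranes is the classical substrate, and the fat body is its main larval source. Several family members were named for where they are transcribed in the embryo, SG for the salivary gland and EFB for the fat body. In the fly embryo PH4alphaSG1 and PH4alphaSG2 depend on the gland transcription factors Fork head and Sage and are needed for an open, even gland lumen.

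The 2 salivary gland members dominated the family in SG and were scarce in B-D. PH4alphaSG2 was 98.6-fold and PH4alphaSG1 96-fold higher in SG. PH4alphaNE1 and PH4alphaMP were also higher in SG, at far lower levels, and PH4alphaEFB was higher in SG when the libraries were scaled for their composition but not when only library size was used. PH4alphaPV was read in all 3 B-D libraries but in only 1 of the 3 SG libraries. PH4alphaNE2 and PH4alphaNE3 were at or near the limit of detection in both tissues.

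The depth was alike in the 6 libraries, between 45023997 and 56583711 counts. The 10 most abundant genes took 28 to 31.2% of the counts in SG and 12.9 to 13.7% in B-D, so the scaling between tissues matters. Levels are given as CPM, counts per 1e6 scaled counts, with edgeR's TMM factors as the scale between tissues, and where genes are compared with each other as CPM per kb of exon. A gene was called when edgeR's quasi-likelihood test gave a Benjamini-Hochberg adjusted p of at most 0.05 and a log2 fold change (SG over B-D) of at least 0.5 in size. Of 11369 genes tested, 34.5% were called higher and 35.3% lower in SG, and against this background 5 of the 6 tested members were called higher and 0 lower. Under library-size scaling alone these shares were 14% and 62.5%, the median of all genes moved by -1.10 on the log2 scale, and 4 of 6 tested members were called higher and 0 lower. The SG and B-D values did not overlap for 81.2% of tested genes and for 5 of 6 tested members. The defining markers of the labelled tissues were present: the summed level of 10 salivary gland genes was 17210 to 38340 CPM in SG and 191 to 501 CPM in B-D, and that of 6 neuronal genes was 118 to 246 CPM in SG and 1776 to 2179 CPM in B-D. The SG libraries also held much fat body RNA, with 187100 to 279000 CPM over 8 fat body genes in SG and 712 to 4365 CPM in B-D. The methods call the 3 replicates of each tissue biological.

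**Figure D1:**
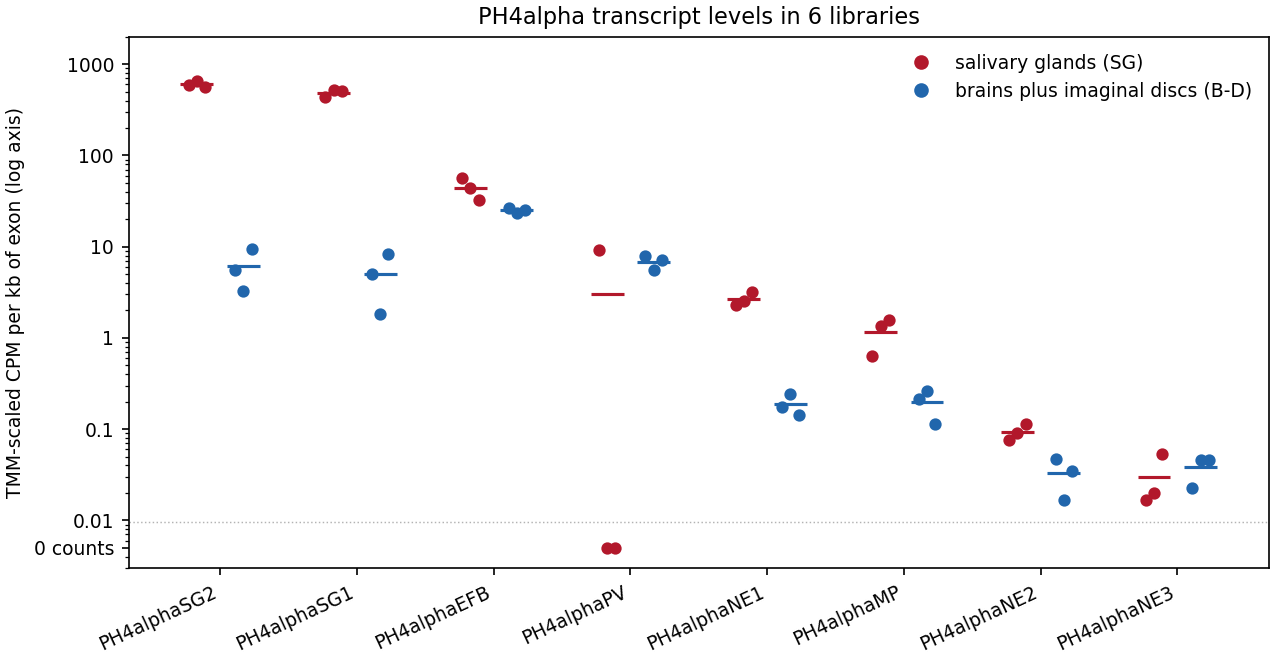
Level of each PH4alpha gene in CPM per kb of exon on a log axis, with 1 point per library (salivary glands in red, brains plus imaginal discs in blue) and a line at the mean of 3 libraries. PH4alphaSG2 and PH4alphaSG1 stand highest in SG, at means of 602 and 487, while PH4alphaEFB leads in B-D at 25. Points below the dotted line are libraries with 0 counts, which occur for PH4alphaPV in SG.

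The order of the family differed between the tissues. In SG, PH4alphaSG2 came first at 602 ± 46.4 CPM per kb (SD, n = 3), followed by PH4alphaSG1 at 487 ± 47.6. The lowest PH4alphaSG2 library lay above the highest PH4alphaSG1 library, at 557 and 518 CPM per kb. PH4alphaEFB was next in SG at 44.3 ± 11.6 CPM per kb (SD, n = 3), 11-fold below PH4alphaSG1. PH4alphaPV at 3.04 ± 5.27 and PH4alphaNE1 at 2.67 ± 0.447 CPM per kb overlapped, since the PH4alphaPV mean comes from 1 library. PH4alphaMP had 1.18 ± 0.484, PH4alphaNE2 0.0934 ± 0.0193 and PH4alphaNE3 0.03 ± 0.0204 CPM per kb in SG, and these 3 did not overlap with their neighbours in the order.

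In B-D, PH4alphaEFB came first at 25 ± 1.5 CPM per kb (SD, n = 3). PH4alphaPV at 6.87 ± 1.25, PH4alphaSG2 at 6.1 ± 3.08 and PH4alphaSG1 at 5.06 ± 3.25 CPM per kb followed, each overlapping the next. PH4alphaMP at 0.197 ± 0.0767 and PH4alphaNE1 at 0.187 ± 0.0504 overlapped too, as did PH4alphaNE3 at 0.0383 ± 0.0138 and PH4alphaNE2 at 0.0332 ± 0.0155. The family summed to 1099, 1216 and 1104 CPM per kb in SG replicates 1 to 3, against 45.6, 34.7 and 50.2 CPM per kb in B-D replicates 1 to 3. PH4alphaSG1 and PH4alphaSG2 together made 93.8, 96.1 and 96.6% of that sum in SG, against 23.4, 14.8 and 35.3% in B-D. PH4alphaEFB made 5.1, 3.62 and 2.97% of the family in SG, and 58.1, 67.6 and 49.9% in B-D. Among all 17493 genes ranked by CPM per kb, PH4alphaSG2 was number 181 and PH4alphaSG1 number 215 in SG, but number 6349 and number 6800 in B-D, while PH4alphaEFB held number 1727 in SG and number 1982 in B-D.

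PH4alphaSG2 had 1008, 1093 and 938 CPM in SG replicates 1, 2 and 3, against 9.46, 5.54 and 15.8 CPM in B-D replicates 1, 2 and 3. All SG libraries were alike, whereas B-D replicate 2 was lowest and B-D replicate 3 highest. The log2 fold change was 6.62 ± 0.46 (SE; edgeR quasi-likelihood test, Benjamini-Hochberg adjusted p = 8.46e-05). PH4alphaSG1 had 738, 885 and 870 CPM in SG, against 8.62, 3.12 and 14.2 CPM in B-D. Its libraries took the same order within B-D, and the groups lay far apart. The log2 fold change was 6.58 ± 0.64 (SE; edgeR adjusted p = 2.37e-04), and 7.18 without B-D replicate 3, a move of over 1.5 times in fold. Against a median log2 fold change of -0.04 over all tested genes, the 6 tested members had a median of 3.2.

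The spread of these 2 genes differed between the tissues. Among the SG libraries the highest level was 1.17 times the lowest for PH4alphaSG2 and 1.2 times for PH4alphaSG1, below the median of 1.32 over 8933 genes. Among the B-D libraries it was 2.85 times for PH4alphaSG2 and 4.56 times for PH4alphaSG1, while 90% of 9440 genes stayed under 1.42 times. Of the 10 salivary gland marker genes, the 3 ng genes varied in the same way and to a like extent. PH4alphaSG1 stood at 1.04, 0.375 and 1.71% of its SG mean in B-D replicates 1, 2 and 3, and PH4alphaSG2 at 0.934, 0.547 and 1.56%. The gland gene ng1 (new glue 1) stood at 1.26, 0.329 and 1.93% of its SG mean in the same B-D libraries, ng2 at 0.987, 0.301 and 1.27%, and ng3 at 1.38, 0.405 and 1.56%. The ratio of PH4alphaSG1 to ng3 counts was 5.75, 6.72 and 7.83% in SG and 5.04, 6.22 and 7.35% in B-D. PH4alphaSG1 was 31.8 to 38.4% of ng1 and 41.3 to 51% of ng2 in SG, against 28.3 to 39.2% and 47.5 to 60.8% in B-D. The PH4alphaSG2 ratios were less alike. In B-D replicate 2 PH4alphaSG2 was 69.7% of ng1, 100.3% of ng2 and 11.05% of ng3. In SG these ratios were 34.2 to 52.5%, 51 to 60.5% and 7.85 to 8.43%. The other 7 markers did not share both the order and the extent. sens and CrebA took the same order but varied less, at 4.67, 3.19 and 5.26% and at 8.34, 7.42 and 10.1% of their SG means in B-D replicates 1, 2 and 3, and fkh was nearly level at 8.16, 8.16 and 9.65%. sage and the glue genes Sgs1, Sgs3 and Sgs4 were lowest in B-D replicate 1, with sage at 1.98, 2.34 and 3.66% and Sgs4 at 0.00901, 0.784 and 3.18%. The part of salivary gland RNA in the B-D values of PH4alphaSG1 and PH4alphaSG2 was not tested.

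**Figure D2:**
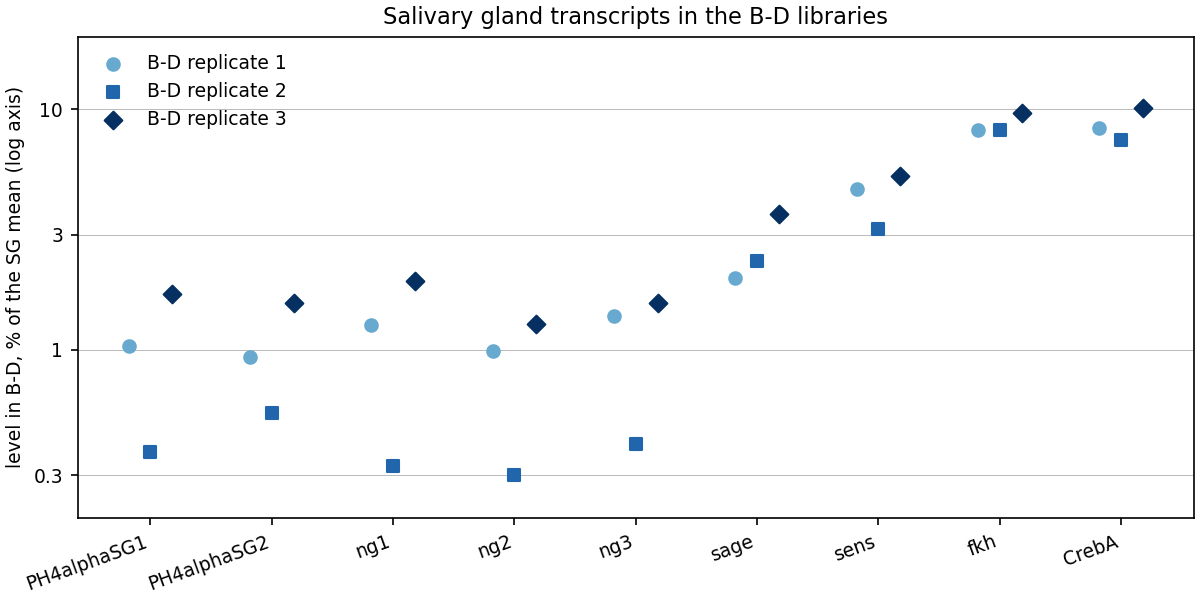
Level of 2 PH4alpha genes and 7 other salivary gland genes in each B-D library, as a percentage of the mean of the 3 SG libraries on a log axis. PH4alphaSG1, PH4alphaSG2 and ng1 to ng3 lie between 0.301 and 1.93%, lowest in B-D replicate 2 and highest in B-D replicate 3, whereas fkh lies at 8.16 to 9.65% and sage is lowest in B-D replicate 1.

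The transcription factors of the gland were measured beside their embryonic targets. Of 5 such genes, 4 were called higher in SG and 1 lower, also under library-size scaling alone. Over all tested genes the shares were 34.5% and 35.3%, and 14% and 62.5% with library size alone. fkh (fork head) had 215, 211 and 237 CPM in SG, against 18, 18 and 21.3 CPM in B-D, and a log2 fold change of 3.53 ± 0.11 (SE; edgeR adjusted p = 2.76e-05). sage, which encodes a gland-specific basic helix-loop-helix factor, had 245, 262 and 579 CPM in SG and 7.15, 8.46 and 13.2 CPM in B-D. Its highest SG library was replicate 3, where PH4alphaSG1 and PH4alphaSG2 were not raised. CrebA, an activator of secretory pathway genes, had a log2 fold change of 3.54 and sens 4.51, and hkb, an embryonic gland patterning factor, was lower in SG at -4.08. The glue gene Sgs3 had 11.4, 2284 and 9449 CPM in SG replicates 1 to 3, against 0.242, 29.5 and 35.3 CPM in B-D. Sgs3 and the other 2 glue genes listed thus set the 3 SG libraries apart from each other, while PH4alphaSG1 and PH4alphaSG2 did not.

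The genes whose pattern over the 6 libraries was nearest to these members shared both the difference between tissues and the order within B-D. For PH4alphaSG1 these were CG43680 (Pearson r 0.9998 of log2 CPM over 6 libraries), Tengl1 (0.9997) and Tengl3 (0.9996), out of 9573 genes compared. For PH4alphaSG2 they were GNBP2 (r 0.9998), CG31496 (0.9998) and CG42832 (0.9995). CG31496 had 1006, 1083 and 954 CPM in SG, against 9.59, 5.48 and 13.9 CPM in B-D, a profile close to that of PH4alphaSG2 in level as well as shape. GNBP2 was different in size, with 7.04, 7.07 and 6.96 CPM in SG and 2.13, 1.82 and 2.37 CPM in B-D. These correlations are descriptions, since the 6 points fall into 2 tissues and share their libraries.

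PH4alphaEFB, the member named for the embryonic fat body, was the leading member in B-D and came after PH4alphaSG2 and PH4alphaSG1 in SG. It had 126, 99.1 and 73.7 CPM in SG, against 59.5, 52.8 and 56.2 CPM in B-D. The B-D libraries were close together, the SG libraries spread 1.71-fold, and the groups did not overlap. The log2 fold change was 0.83 ± 0.20 (SE; edgeR adjusted p = 0.00916). Under library-size scaling alone it was -0.28 (edgeR adjusted p = 0.2), so neither the direction nor the call held. Part of the fat body list moved with this gene among the SG libraries. The 8 fat body genes summed to 279000, 226400 and 187100 CPM in SG replicates 1, 2 and 3, the same order as PH4alphaEFB, against 4365, 712 and 1659 CPM in B-D replicates 1, 2 and 3. All 8 were detected in every library. The 4 larval serum protein genes (Lsp1alpha, Lsp1beta, Lsp1gamma and Lsp2) carried that order, with Lsp1gamma at 117100, 95580 and 82930 CPM in SG replicates 1, 2 and 3. The other 4 genes of the list did not take it: apolpp was nearly level at 23850, 22670 and 23060 CPM, Fbp1 ran the other way at 23.6, 135 and 642 CPM, and Fbp2 and Yp1 were lowest in replicate 2. The part of fat body RNA in the PH4alphaEFB difference was not tested.

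**Figure D3:**
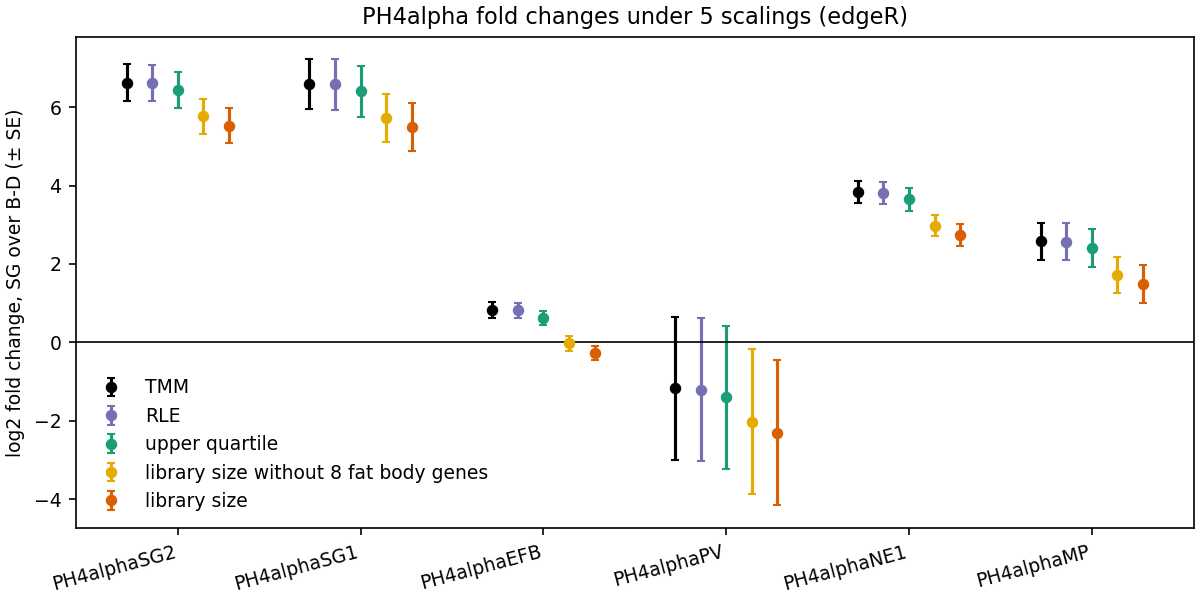
Log2 fold change (SG over B-D, ± SE, edgeR) of the 6 tested PH4alpha genes under 5 scalings: TMM, RLE, upper quartile, library size without 8 fat body genes (chosen after the data were seen) and library size. PH4alphaSG2, PH4alphaSG1, PH4alphaNE1 and PH4alphaMP stay above 0 under each, PH4alphaEFB runs from 0.83 with TMM to -0.28 with library size alone, and PH4alphaPV stays below 0 with wide errors.

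The genes nearest in pattern to PH4alphaEFB differed little between tissues, with log2 fold changes of 0.47 to 1.04. They were PIG-V (Pearson r 0.9988 over 6 libraries), Samtor (0.9973) and Phax (0.9971). Samtor had 9.87, 7.97 and 5.4 CPM in SG and 4.13, 3.49 and 3.67 CPM in B-D.

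Collagen and the factors that process it were examined beside the alpha subunits. Of 14 genes listed, 13 were found in the count table by symbol and 12 tested. Of these, 10 were called higher in SG and 2 lower, against 34.5% and 35.3% of all tested genes. The median log2 fold change of the 12 was 1.76. Under library-size scaling alone 8 were called higher and 2 lower, against 14% and 62.5% of all tested genes, with a median of 0.67. Pdi, which encodes protein disulfide isomerase and so the beta subunit of the enzyme, had 5075, 4747 and 3895 CPM in SG, against 449, 374 and 383 CPM in B-D. This was the largest fold change of the list, at 3.51 ± 0.16 on the log2 scale (SE; edgeR adjusted p = 3.29e-05). The collagen IV chains followed. Col4a1 had 2390, 2039 and 1424 CPM in SG, against 298, 198 and 215 CPM in B-D, and a log2 fold change of 3.04 ± 0.27 (SE; edgeR adjusted p = 1.65e-04). The other chain, vkg, had 1486, 1257 and 818 CPM in SG and 226, 158 and 165 CPM in B-D. Both chains took the order of PH4alphaEFB within SG. The part of fat body RNA in the Col4a1 and vkg differences was not tested. PH4alphaEFB counts were 5.27, 4.86 and 5.18% of Col4a1 counts in SG, against 20, 26.6 and 26.1% in B-D.

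Other enzymes of collagen maturation and secretion were higher in SG by smaller margins. Plod, the lysyl hydroxylase, had 238, 201 and 212 CPM in SG, against 135, 117 and 140 CPM in B-D, a log2 fold change of 0.74 that was -0.36 under library-size scaling alone. The disulfide isomerase genes CaBP1 and ERp60 had log2 fold changes of 2.55 and 1.69, the oxidase gene Ero1L 1.68, Tango1, a collagen export factor, 1.83, and prtp 0.65, which was -0.45 with library size alone. SPARC, which encodes a collagen IV binding protein, reached 2.69 and took the order of PH4alphaEFB within SG. The part of fat body RNA in the SPARC difference was not tested. Mp, which encodes the collagen Multiplexin, was lower in SG at -2.69, with 5.58, 3.81 and 12.5 CPM in SG and 44.1, 49.6 and 47.9 CPM in B-D, and the fold change was -3.31 without SG replicate 3, a move of over 1.5 times in fold. Pxn, for Peroxidasin, was lower in SG at -2.53, with 27.4, 12.5 and 32.1 CPM in SG and 181, 96.1 and 138 CPM in B-D. The sum of 7 hemocyte markers took the same order within each tissue, at 280, 191 and 379 CPM in SG and 1721, 1014 and 1197 CPM in B-D. Singly, Hml, He and Ppn took that order in both tissues, while NimC1, eater, crq and srp did not. None of the 7 was at 0 in any library. In SG 5 of the 7 were called lower and 1 (srp) higher, against 35.3% and 34.5% of all tested genes. The part of hemocyte RNA in the Pxn difference was not tested. Loxl2, a lysyl oxidase gene, had 0 counts in each SG library, against 4, 8 and 13 counts in B-D, and was not tested.

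Hph and sud1 were the 2 prolyl hydroxylases listed outside the family, and both showed small differences. Whether any neighbouring gene on the chromosome encodes a prolyl hydroxylase was not examined. Hph, which targets the oxygen-responsive factor Sima, had 74.1, 82.5 and 81.1 CPM in SG, against 48.8, 51.4 and 55 CPM in B-D, a log2 fold change of 0.62. sud1, which acts on a ribosomal protein, had 21.9, 20.3 and 21.7 CPM in SG and 13.9, 13.1 and 11.4 CPM in B-D, a log2 fold change of 0.74. Both were called higher in SG (2 of 2, against 34.5% of all tested genes). Under library-size scaling alone neither was called and both were negative, at -0.48 and -0.36. Among 3 genes for iron in the secretory pathway, the transporter gene Zip99C was higher in SG at 2.34, with 76.3, 138 and 81.6 CPM in SG and 19.8, 17.9 and 20.9 CPM in B-D. The ferritin chains Fer1HCH at -0.22 and Fer2LCH at -0.40 were not called. Both were called lower under library-size scaling alone, as were 62.5% of all tested genes.

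PH4alphaNE1 had 3.96, 4.45 and 5.48 CPM in SG, against 0.303, 0.422 and 0.251 CPM in B-D. The counts behind these levels were 147, 138 and 189 in SG and 25, 28 and 20 in B-D, so the groups lay well apart at a low level. The log2 fold change was 3.83 ± 0.28 (SE; edgeR adjusted p = 9.64e-05). PH4alphaMP had 1.19, 2.52 and 2.93 CPM in SG, against 0.4, 0.497 and 0.213 CPM in B-D. Its counts were 44, 78 and 101 in SG and 33, 33 and 17 in B-D, without overlap in CPM. The log2 fold change was 2.58 ± 0.47 (SE; edgeR adjusted p = 0.00298). Part of PH4alphaMP lies opposite PH4alphaSG2, whose counts were far more numerous in SG: PH4alphaMP counts were 0.118, 0.23 and 0.313% of PH4alphaSG2 counts in SG, against 4.23, 8.97 and 1.35% in B-D. Whether the counting used strand is not given in the sources used here, so the PH4alphaMP value is uncertain.

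PH4alphaNE2 and PH4alphaNE3 did not pass the filter on low counts. PH4alphaNE2 had 5, 5 and 7 counts in SG, against 7, 2 and 5 counts in B-D. PH4alphaNE3 had 1, 1 and 3 counts in SG, against 3, 5 and 6 counts in B-D. A count of 0 would allow up to 3 counts in a library, which is 0.0809 to 0.0968 CPM in SG and 0.0364 to 0.0452 CPM in B-D, counting error only, and PH4alphaNE3 in SG did not exceed it. No difference was detectable at this depth for PH4alphaNE3, with a log2 fold change of -0.38 ± 0.66 (SE) and an adjusted p of 0.663 when edgeR was run without the filter. For PH4alphaNE2 the same edgeR fit, with TMM scaling, gave 1.37 ± 0.49 (SE) and an adjusted p of 0.05, from counts of 7 or fewer. These counts summed to 17 in SG and 14 in B-D, and the fit was not repeated with library size alone.

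PH4alphaPV was the member with the most uneven counts. It had 660, 0 and 0 counts in SG replicates 1, 2 and 3, against 1285, 716 and 1103 counts in B-D replicates 1, 2 and 3. In CPM these were 17.8, 0 and 0 in SG and 15.6, 10.8 and 13.8 in B-D, so SG replicate 1 lay above every B-D library, at 133% of the B-D mean, and the other 2 SG libraries below all of them. The log2 fold change of -1.17 ± 1.82 (SE; edgeR adjusted p = 0.578) was not called, nor was the value of -4.67 with the replicate number as a block (edgeR adjusted p = 0.178). Without SG replicate 1 the gene was called lower in SG (edgeR adjusted p = 4.12e-04). With a floor of 3 counts per library, SG replicates 2 and 3 were at least 138-fold lower than the B-D mean and at least 111-fold lower than the lowest B-D library.

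PH4alphaPV shared this pattern with other genes. In all, 15 genes had 100 or more counts in SG replicate 1 and 0 in SG replicates 2 and 3, and 0 genes had that pattern for either of the other SG libraries. These genes were found after their values were seen. Of the 15, 14 also had 100 or more counts in every B-D library, and their level in SG replicate 1 was 30.9 to 220% of their B-D mean, with a median of 125%. They included CG34282, with 635, 0 and 0 CPM in SG and 474, 295 and 457 CPM in B-D, CG43896, with 503, 0 and 0 CPM in SG and 474, 320 and 482 CPM in B-D, and Muc26B, with 157, 0 and 0 CPM in SG and 199, 116 and 235 CPM in B-D. The serine protease gene Jon65Aiv, 1 of 6 genes listed for gut and proventriculus, was another, with 25.9, 0 and 0 CPM in SG and 219, 3.86 and 28.6 CPM in B-D. Of the 6 gut genes, 5, 1 and 2 had more than 3 counts in SG replicates 1, 2 and 3, against 5, 3 and 5 in B-D replicates 1, 2 and 3, and their sum was 294 to 356 CPM in SG and 133 to 451 CPM in B-D. LManII made up most of that sum except in B-D replicate 1, where Jon65Aiv was higher, at 219 CPM against 201 CPM for LManII. Jon65Aiv, alphaTry and Amy-p were at 0 in SG replicates 2 and 3, and betaTry was at 0 in SG replicate 2. The part of gut RNA in the PH4alphaPV values was not tested.

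**Figure D4:**
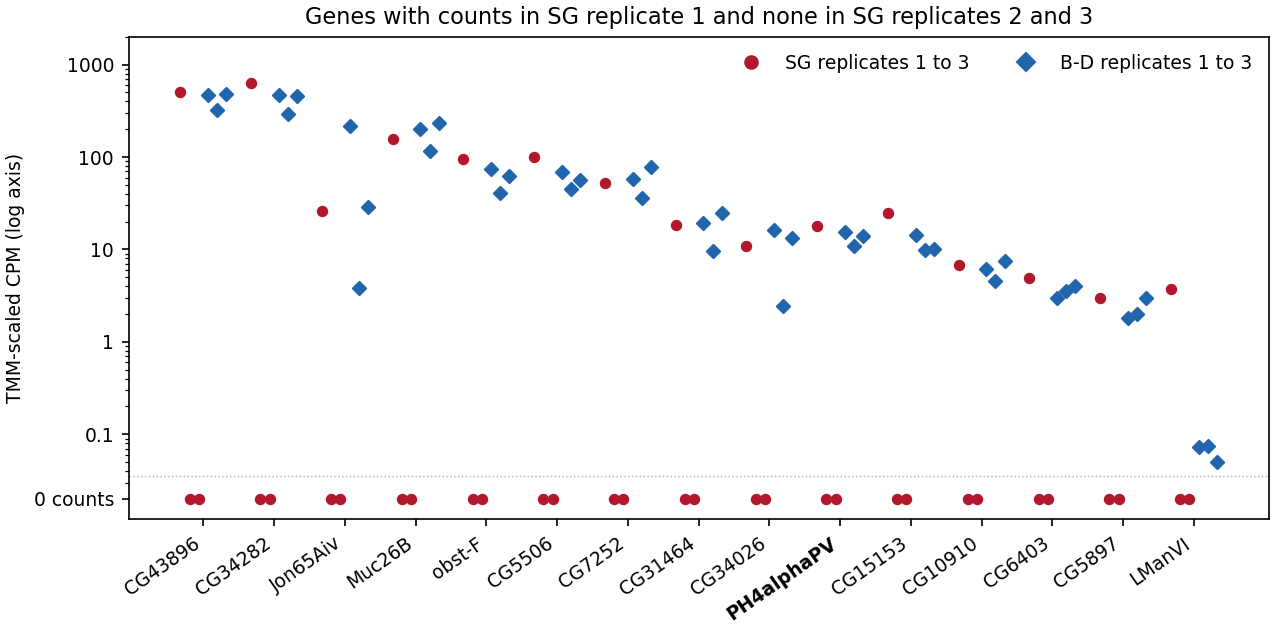
The 15 genes, PH4alphaPV in bold, with 100 or more counts in SG replicate 1 and 0 in SG replicates 2 and 3, in TMM-scaled CPM on a log axis, with 1 point per library (SG circles left, B-D diamonds right). For 14 of them SG replicate 1 lies at 30.9 to 220% of the B-D mean, and LManVI is the exception.

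The 8 genes lie together on chromosome arm 3R, between positions 30466050 and 30648551 of Release 6 of the genome, a span of 182.5 kb that holds 34 counted genes. PH4alphaEFB is at 30466050 to 30485799 on the plus strand, with 9 exons, and the gene spdo lies in one of its introns. PH4alphaSG2 is at 30490074 to 30491987 on the plus strand with 5 exons, PH4alphaMP at 30491813 to 30496153 on the minus strand with 6, PH4alphaNE1 at 30496751 to 30500326 on the minus strand with 8, and PH4alphaSG1 at 30503665 to 30505661 on the minus strand with 6. PH4alphaNE2 is at 30510083 to 30512214 on the minus strand with 7 exons, PH4alphaNE3 at 30604181 to 30606144 on the plus strand with 7, and PH4alphaPV at 30646106 to 30648551 on the minus strand with 8. Each is annotated with 1 transcript, and the encoded proteins have 481 (PH4alphaNE3) to 550 (PH4alphaEFB) residues. The exons of PH4alphaSG2 and PH4alphaMP overlap on opposite strands by 128 bases, 7.6% of the PH4alphaSG2 exons and 6.8% of those of PH4alphaMP, and PH4alphaNE2 overlaps CG34041 by 64 bases.

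The exon pattern was shared in a way that the symbols did not fix. The exon before the last was 166 bases long in 7 of the 8 genes and 169 bases in PH4alphaNE3, whereas 48 of 11574 counted protein-coding genes with several exons (0.415%) had an exon of 166 bases in that place. The length was taken from the members themselves, and the 48 genes include these 7. Among 20 other genes of the neighbourhood with such an exon, CG15539, CG31524 and CG31013 also had 166 bases and CG31016 had 169. No role is given here for those 4 genes.

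**Figure D5:**
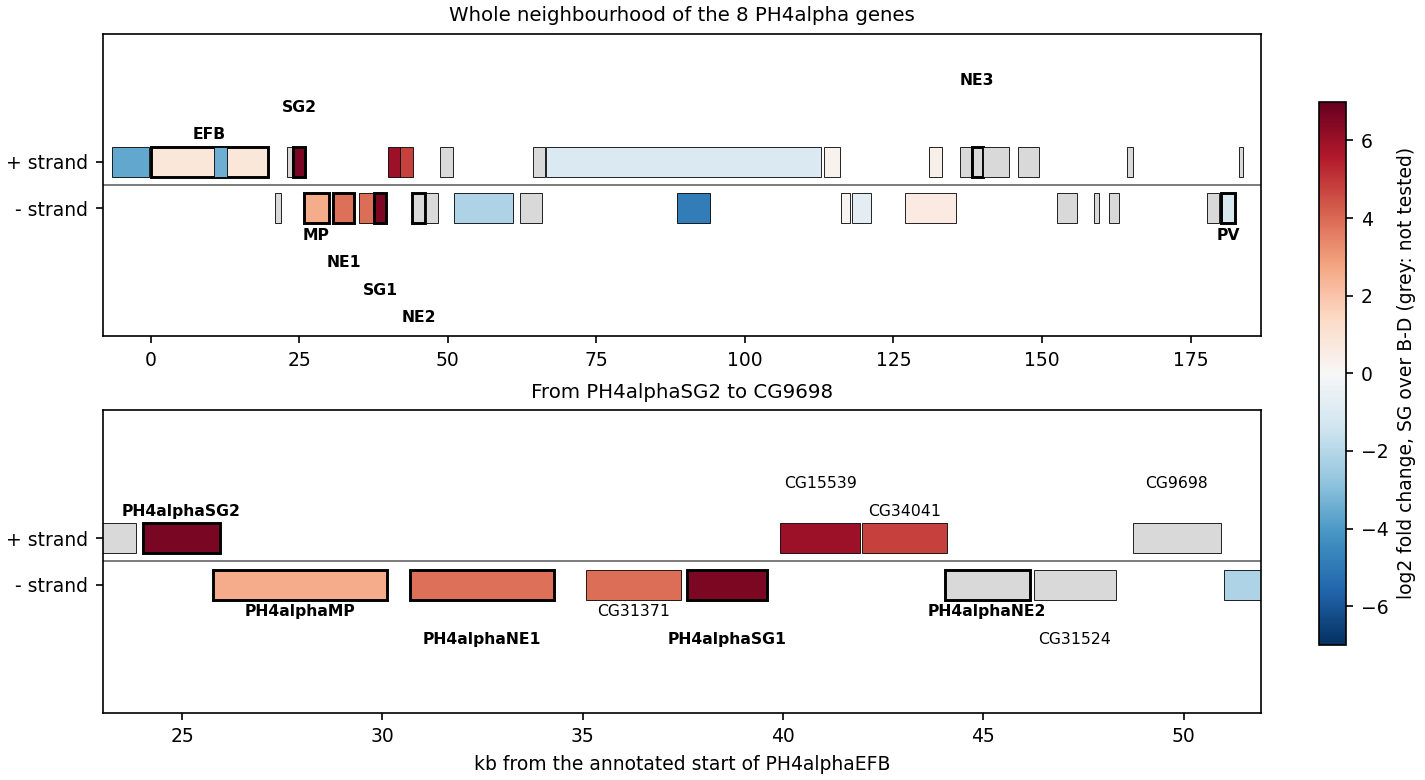
Map of the neighbourhood in kb from the annotated start of PH4alphaEFB, with genes on the plus strand above the line and on the minus strand below, PH4alpha genes outlined in bold and colour for the log2 fold change (SG over B-D, grey where not tested). The lower map enlarges the stretch from PH4alphaSG2 to CG9698, chosen after its values were seen, in which all 7 tested genes were called higher in SG.

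Genes higher in SG lay side by side in one stretch. Of the 10 genes from PH4alphaSG2 to CG9698, 7 were tested, with a median log2 fold change of 4.8. All 7 were called higher in SG, also under library-size scaling alone, against 34.5% and 14% of all tested genes. Besides PH4alphaSG2, PH4alphaMP, PH4alphaNE1 and PH4alphaSG1 these were CG31371, CG15539 and CG34041, and the stretch was chosen after its values were seen. CG15539 and CG34041 had at most 7 counts in any B-D library and passed the filter on low counts only through SG. A call on either could only be higher, so 7 of 7 describes the stretch and does not test it. CG31371, which starts 158 bases beyond the end of PH4alphaSG1 on the same strand, had 180, 162 and 250 counts in SG, against 38, 19 and 32 in B-D (log2 fold change 3.90 ± 0.29 SE, edgeR adjusted p = 9.84e-05). Its counts were 0.658, 0.591 and 0.833% of those of PH4alphaSG1 in SG and 5.35, 9.18 and 2.82% in B-D, and so did not follow PH4alphaSG1 among the B-D libraries. CG15539, which points away from PH4alphaSG1 across a gap of 325 bases, had 76, 84 and 165 counts in SG and 3, 1 and 7 in B-D (log2 fold change 6.00 ± 0.63 SE, edgeR adjusted p = 3.09e-04), and 6.81 without B-D replicate 3. CG34041 had 30, 30 and 95 counts in SG and 3, 2 and 7 in B-D, with a log2 fold change of 4.80 that was 4.05 without SG replicate 3 and 5.42 without B-D replicate 3.

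Outside this stretch, whose bounds were set after the values were seen, the called neighbours were CG2246, higher in SG, and 5 genes that were lower. Over the whole neighbourhood, the flanking genes included, 28 genes other than the PH4alpha members were counted and 13 tested. Of the 13, 4 were called higher and 5 lower in SG, near the shares of 34.5% and 35.3% over all tested genes. Their median log2 fold change was 0.16. CG31371, CG15539 and CG34041 of the stretch are among the 4 called higher. The remaining gene is CG2246, at 0.65 with TMM and -0.45 under library-size scaling alone. The genes called lower were CDase at -3.63, spdo at -3.44, jdp at -2.15, tmod at -1.02 and CG34155 at -4.90. CDase ends 313 bases before PH4alphaEFB and had 3.67, 2.45 and 5.83 CPM in SG, against 48.1, 49.2 and 51.4 CPM in B-D. spdo, inside PH4alphaEFB, had 3.32, 1.97 and 3.22 CPM in SG and 30.2, 29.9 and 32.3 CPM in B-D. PH4alphaEFB, with its small positive fold change, thus lay beside and around genes that were lower in SG.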

How the data were processed

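RNA was extracted with TRIzol and made into stranded polyA libraries, which were sequenced as single reads of 75 bases. Per the labels and methods, the authors mapped reads with STAR 2.6.1a to Release R6.23 of the genome and counted them per gene with featureCounts, and the deposited values used here are whole-number counts. Neither the methods nor the labels state whether strand was used in counting or how reads with several hits were handled. The authors' own comparison columns (fold changes and p-values) were not used. Counts were fitted with edgeR 4.0.16 in R 4.3.3 (filterByExpr with a minimum count of 10, TMM scaling, quasi-likelihood F test with tissue as the term, Benjamini-Hochberg over 11369 genes), after the script was tested on simulated data. SE is the fold change over the root of F. Pearson r was taken over log2 CPM with a prior count of 2 for genes of at least 1 CPM. DESeq2 1.42.0, limma-voom 3.58.1, other scalings, no filter, a replicate block and leaving out each library were alternatives, 14 in all. Gene positions came from an Ensembl annotation of Release 6, in which 17372 gene IDs matched. Since both tissues came from the same animals, libraries with the same number were taken as pairs, though the sources do not state that the numbers match. Their deviations from the group means correlated at 0.33, 0.0769 and 0.222 for numbers 1 to 3, and SG replicate 3 correlated slightly better with B-D replicate 2 (0.229). The main fit has no block. The SE and SD reflect differences between libraries, whereas the floors cover counting error only.

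Named genes were all 8 members, the listed partner and marker genes, neighbours on the chromosome and the 3 genes nearest in pattern to PH4alphaSG1, PH4alphaSG2 and PH4alphaEFB. The family was proposed, and the lists written, with earlier results of these data known, while its members follow from the symbols alone. Relatives of the family by protein similarity were not analysed here, and neighbouring genes are described in their place.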

Additional observations from a re-analysis of the deposited data

How the results depend on the processing

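PH4alphaSG1, PH4alphaSG2, PH4alphaNE1 and PH4alphaMP were called higher in SG under all 14 alternatives, with log2 fold changes of 5.49 to 7.18, 5.53 to 7.12, 2.74 to 4.09 and 1.49 to 2.89. PH4alphaEFB held under 12 and turned to -0.28 under library-size scaling alone and to -0.026 (edgeR adjusted p = 0.908) when 8 fat body genes were also left out of the library, an alternative chosen after seeing the data. Those scalings gave 1588 and 1931 genes called higher and 7111 and 6338 lower, against 3924 and 4010 with TMM, and moved the median log2 fold change of all genes by -1.10 and -0.85. PH4alphaPV was called lower with limma-voom (-6.26, limma adjusted p = 0.0252) and without SG replicate 1, where both remaining SG libraries are at 0, which makes 1 member called lower. When each library was left out in turn PH4alphaPV ran from -12.62 to -0.56, the members called lower from 0 to 1, genes called higher from 3805 to 4011 and genes called lower from 3709 to 4154.

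With the replicate number as a block (replicate block), 3893 genes were called higher and 3985 lower, and no call on a PH4alpha gene, a partner, a gland transcription factor or a neighbour changed. PH4alphaNE2 and PH4alphaNE3 could be tested only without the filter, which made 6 members called higher. That fit called 4030 genes higher and 4336 lower, and their share of all genes in it is not given here. The added member was PH4alphaNE2, at the threshold itself (edgeR adjusted p = 0.05), from 17 counts in SG and 14 in B-D. Depth limits both of them, and opposite-strand overlap limits PH4alphaMP. The causes of these moves were not tested.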
